A study of Mus musculus with 6 samples.

Results

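Ribosomal protein pseudogenes were measured beside the genes they were copied from in primary mouse gingival fibroblasts, 3 h after Er:YAG laser irradiation. The members were all genes of a pseudogene type whose symbol joins a ribosomal protein gene (Rpl or Rps) to -ps, with or without a number after it, leaving out Rps27a-ps1 and Rps27a-ps2. This gave 173 pseudogenes of 20665 genes in the table, 166 annotated as processed pseudogenes and 7 as transcribed processed pseudogenes. The symbol before -ps names the parent, and the 173 had 53 parents, from 1 pseudogene (15 parents) to 17 (Rps12). The non-irradiated group held 3 libraries of cells with no treatment and the irradiated group 3 libraries of cells in a 35-mm dish given 3.9 J/cm2 from a laser placed 25 cm away. The cells of both groups were wild-type C57BL/6 cells from the maxilla, and libraries bearing the same replicate number were paired. Whether replicates came from separate mice or cultures is not stated, so p-values measure the spread between these libraries, which may be technical.

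Ribosomal proteins build the large (RPL) and small (RPS) subunits of the ribosome, and in mouse nearly every one is made from 1 intron-containing gene. Their short, abundant mRNAs have been copied back into the genome many times by reverse transcription. The copies, called processed pseudogenes, lack introns and usually lack the parent's promoter, and most are thought to make little RNA. A recent copy differs from its parent's mRNA at few bases, so that a short sequencing read from one can match the other as well.

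The 6 libraries held 45178137 to 59904715 reads counted in genes. All 10 fibroblast markers were present, with a summed level of 1802898 to 2953823 normalized counts in non-irradiated and 1985988 to 2786038 in irradiated libraries. Of 6 epithelial markers only Epcam and Cdh1 were in the table, and their sum reached 18.3 normalized counts in non-irradiated and 19.6 in irradiated libraries. Krt5, Krt14, Krt6a and Trp63 were not among the genes listed. In bulk RNA, fewer cells of a type and less RNA per cell cannot be told apart.

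Non-irradiated replicate 2 stood apart from the other libraries. The parents summed to 4.02% of all normalized counts there and to 2.78% to 3.39% in the other 5 libraries, and the pseudogenes to 0.306% there and 0.213% to 0.243% elsewhere. It held the highest value of 69 of the 119 pseudogenes that could be tested (58.0%) and of 49 of the 53 parents, compared with 23.1% of all tested genes. A result drawn from pair 2 alone therefore carries this library's level, and values per pair are given for the genes that matter.

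The sequences of the pseudogenes were close to those of their parents. All 173 were matched by identifier to the GENCODE M21 annotation (build GRCm38), which is not the build of the deposited values (GRCm39), so that no coordinates are given. The copies lay on 20 chromosomes, 110 outside other genes, 34 in an intron on the other strand, 22 in an intron on the same strand and 7 overlapping an exon. In a local alignment, 171 covered at least 80% of the parent's coding sequence. Their identity to the parent ran from 87.5% to 100%, and the median over all 173 was 98.4%. Along 13 pseudogenes no base differed from the parent, and for 30 every window of 100 bases was also found in a transcript of another gene.

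The coding sequences of Rps13 and Rps26, which encode small-subunit proteins, and of their pseudogenes show how small the differences can be. They are given because their pseudogenes were the members with the smallest p when irradiated cells were compared with non-irradiated ones. Sequences are from GENCODE M21, 5′ to 3′, with capitals at bases that differ from the parent and positions counted from 1 at the parent's start codon. The first set is coding bases 397 to 453.
Rps13: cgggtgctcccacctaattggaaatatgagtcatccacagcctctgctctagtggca
Rps13-ps1: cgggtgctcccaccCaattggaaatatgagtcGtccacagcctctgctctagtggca
Rps13-ps2: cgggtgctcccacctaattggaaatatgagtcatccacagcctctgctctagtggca
Rps13-ps4: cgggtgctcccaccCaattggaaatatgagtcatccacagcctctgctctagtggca
Rps13-ps5: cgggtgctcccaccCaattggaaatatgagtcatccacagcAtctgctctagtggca

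Rps13 and Rps13-ps2 lie on chromosome 7, Rps13-ps1 and Rps13-ps4 on chromosome 8 and Rps13-ps5 on chromosome 11. Rps13-ps2 had the parent's sequence in all 453 aligned bases. Rps13-ps1 differed from the parent at 2 of 522 bases, T411C and A429G, and T411C was also found in Rps13-ps4 and Rps13-ps5. Rps13-ps4 had 3 differences in 456 bases and Rps13-ps5 had 12. Of windows of 100 bases, the parent held 100% of those of Rps13-ps2, 76.8% of those of Rps13-ps1, 54.9% of those of Rps13-ps4 and 40.3% of those of Rps13-ps5.

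Rps26-ps1 on chromosome 8, in an intron of Wwp2 on the other strand, differed from Rps26 on chromosome 10 at 2 of 351 bases, C30T and G270A. Both fall in the stretches below, the first pair covering coding bases 1 to 60 and the second 241 to 300.
Rps26: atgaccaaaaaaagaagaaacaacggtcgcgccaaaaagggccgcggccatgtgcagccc
Rps26-ps1: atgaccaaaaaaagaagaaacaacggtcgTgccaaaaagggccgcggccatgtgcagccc
Rps26: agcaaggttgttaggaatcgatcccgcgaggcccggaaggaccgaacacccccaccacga
Rps26-ps1: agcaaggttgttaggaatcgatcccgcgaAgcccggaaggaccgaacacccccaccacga

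The level of a pseudogene went with how closely it matched its parent. The 58 pseudogenes with at least 99% identity had a median of 789 normalized counts over the 6 libraries, the 69 with 97% to 99% had a median of 17.9 and the 44 under 97% had a median of 7.08. Per kilobase, and as a percentage of the parent's level per kilobase, these medians were 3.74%, 0.101% and 0.0297%. All 13 pseudogenes with no difference from the parent lay well above that middle median, from Rps23-ps1 at 329 to Rps12-ps3 at 8514. Of the 30 pseudogenes at 1000 normalized counts or more, 26 were in the group with the highest identity and 4 in the middle one. In that highest group a window of 100 bases was found in the parent for a median of 61.5% of positions, compared with 15.7% and 3.53% in the others. How the authors' counting placed reads that match several genes is not given in the sources used here, so that RNA made by a copy and reads of the parent placed on it cannot be told apart.

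**Figure D1:**
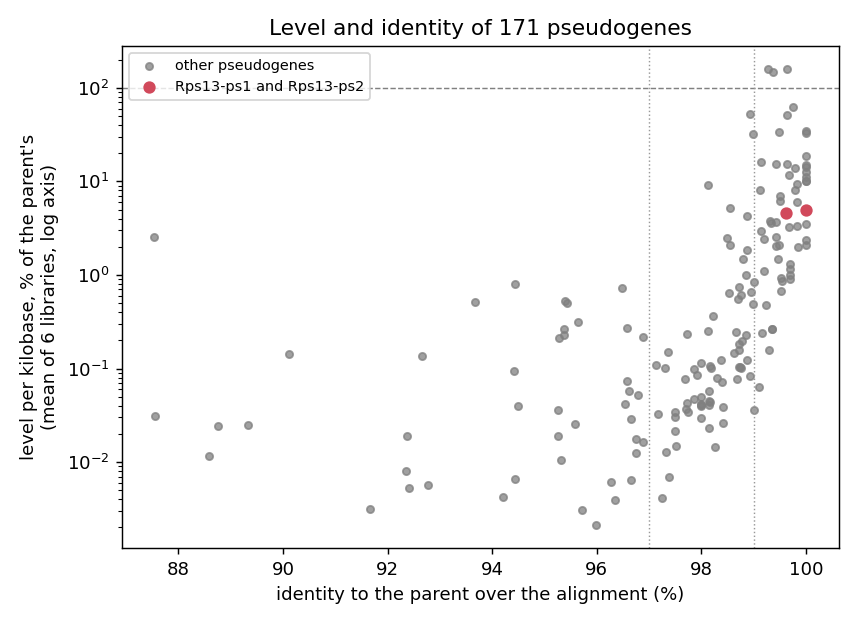
Each point is 1 of the 171 pseudogenes whose alignment covers at least 80% of the parent's coding sequence, with identity to the parent on the x axis and the mean level per kilobase as a percentage of the parent's on a log y axis; dotted lines mark 97% and 99% identity and the dashed line the parent's own level. The median rises from 0.0297% under 97% identity to 3.74% at 99% and above, and 3 points lie above the parent's level.

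Among the 53 parents the mean level ran from 7094 normalized counts for Rpl17 to 101539, and among the pseudogenes from 0.507 to 9402. Per kilobase, 3 pseudogenes were above their parent: Rpl17-ps3 at 160% and Rpl17-ps10 at 158% of Rpl17, and Rpl21-ps15 at 149% of Rpl21. Both parents encode large-subunit proteins. The pseudogenes held a mean of over 10% of the summed reads of pseudogenes and parent in 13 of the 53 families and under 1% in 21.

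The 10 pseudogenes of highest level were copies of genes of both subunits. Rpl7a-ps11 had 9522, 12520.2 and 9012 normalized counts in non-irradiated replicates 1, 2 and 3 and 8980.3, 5776 and 10603 in irradiated replicates 1, 2 and 3. Rps12-ps3 had 7787, 10778 and 7448 in non-irradiated and 9979.9, 8072 and 7015 in irradiated libraries. Both groups overlapped for each of these copies, and the lowest value of Rpl7a-ps11 was in irradiated replicate 2. Rpl14-ps1 had 8117, 9097 and 7484 in non-irradiated and 8521, 8108 and 8536 in irradiated libraries. Rps7-ps3 had 6551, 6955 and 6717 in non-irradiated and 6999.6, 6318 and 6259.8 in irradiated libraries. These values differ by less than 1.3-fold over all 6 libraries for either copy, while the other 6, Rpl17-ps3, Rpl17-ps10, Rps10-ps2, Rpl21-ps15, Rpl15-ps3 and Rps6-ps4, had log2 fold changes (irradiated minus non-irradiated) between -0.17 and 0.04. None of the 10 passed the test of the laser described next, with adjusted p-values of 0.995 or 0.997 in limma.

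Setting irradiated beside non-irradiated cells asks what the laser had done to expression by 3 h. Of the 173 pseudogenes 119 reached 10 normalized counts in 3 or more libraries and were tested. The other 54 had means of 0.507 to 10.2 normalized counts, and 22 of them were at 0 in at least 1 library. Rps13-ps1 and Rps13-ps2 fell in irradiated cells. They were 2 of the 3 genes called lower among 16141 tested (0.0186%), at an adjusted p under 0.05 in limma with the replicate number as a block. The third was Rps27a, a parent. No pseudogene was called higher, where 0% of all tested genes were called, and none had an unadjusted p under 0.05 in that direction. Lower with an unadjusted p under 0.05 were 6 of the 119, compared with 3.26% of all tested genes in either direction.

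Rps13-ps1 (ENSMUSG00000066362) had 815, 871 and 1164 normalized counts in non-irradiated replicates 1, 2 and 3 and 272, 358 and 379 in irradiated replicates 1, 2 and 3. The groups did not overlap, and every irradiated library was below its partner. Its log2 fold change was -1.49 ± 0.14 (SE, 3 pairs), with an adjusted p of 0.0227 in limma. Here and below, SE is limma's moderated SE, which draws on the spread of all genes or pairs in the fit. It can be smaller or larger than the SEM of the 3 pairs. By pair, the log2 ratios were -1.58, -1.28 and -1.62. Rps13-ps2 (ENSMUSG00000069972) had 757, 762 and 1122 in non-irradiated and 197, 332 and 291 in irradiated libraries. Again no irradiated value reached a non-irradiated one, and the log2 fold change was -1.69 ± 0.18 (SE, 3 pairs) with an adjusted p of 0.0379 in limma. By pair, the log2 ratios were -1.94, -1.20 and -1.95. Without the replicate block neither copy was called, with an adjusted p of 0.9998 for each in limma and 0.99996 in edgeR, although DESeq2 without the block gave 1.91e-06 and 7.19e-06. Without the block limma and edgeR called 0 genes in all and DESeq2 called 5. In edgeR with the block Rps13-ps2 had an adjusted p of 0.0504.

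Rps13 itself, which encodes a protein of the small subunit, was not called, and its difference from these copies is tested below. It had 13840, 18305 and 12924 normalized counts in non-irradiated and 17373, 15807 and 13605 in irradiated libraries. Those groups overlapped, and the log2 fold change was 0.06 ± 0.10 (SE, 3 pairs) with an adjusted p of 0.995 in limma. Rps13-ps4 stood at 32.1, 36.5 and 30.9 in non-irradiated and 32.8, 27.4 and 28.9 in irradiated libraries, and Rps13-ps5 at 16.1, 19.3 and 16.6 in non-irradiated and 16.4, 25.4 and 13.5 in irradiated ones. Their log2 fold changes were -0.16 ± 0.42 and 0.04 ± 0.56 (SE, 3 pairs), with wide errors at these low levels.

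Rps26-ps1 (ENSMUSG00000059775) had 1331, 907 and 1144 normalized counts in non-irradiated and 246, 497 and 433 in irradiated libraries. The groups did not overlap, and the log2 ratios by pair were -2.43, -0.87 and -1.40. Its log2 fold change was -1.57 ± 0.25 (SE, 3 pairs), as large as those of the Rps13 copies. The SEM of its 3 pairs alone was 0.46. With this spread its adjusted p was 0.364 in limma and it was not called. It was called without replicate 1, 2 or 3, with adjusted p-values of 2.52e-11 to 0.00418 in limma. Those fits had fewer residual degrees of freedom than the 2 of the full fit, so their p-values lean on the variance pooled over genes. They called 35, 46 and 56 genes in all, compared with 3 in the full fit. The authors' deposited table gives Rps26-ps1 a log2 fold change of -1.56 with an adjusted p of 4.04e-07. Rps26, whose protein lies near the mRNA exit of the small subunit, had 28409, 39633 and 29845 in non-irradiated and 33275, 29179.6 and 27759 in irradiated libraries, with a log2 fold change of -0.11 ± 0.12 (SE, 3 pairs). That deposited table calls 3 of the 108 pseudogenes to which it gives an adjusted p, all lower, namely Rps13-ps1, Rps13-ps2 and Rps26-ps1, while it calls 0.0532% of genes lower and 0.106% higher.

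**Figure D2:**
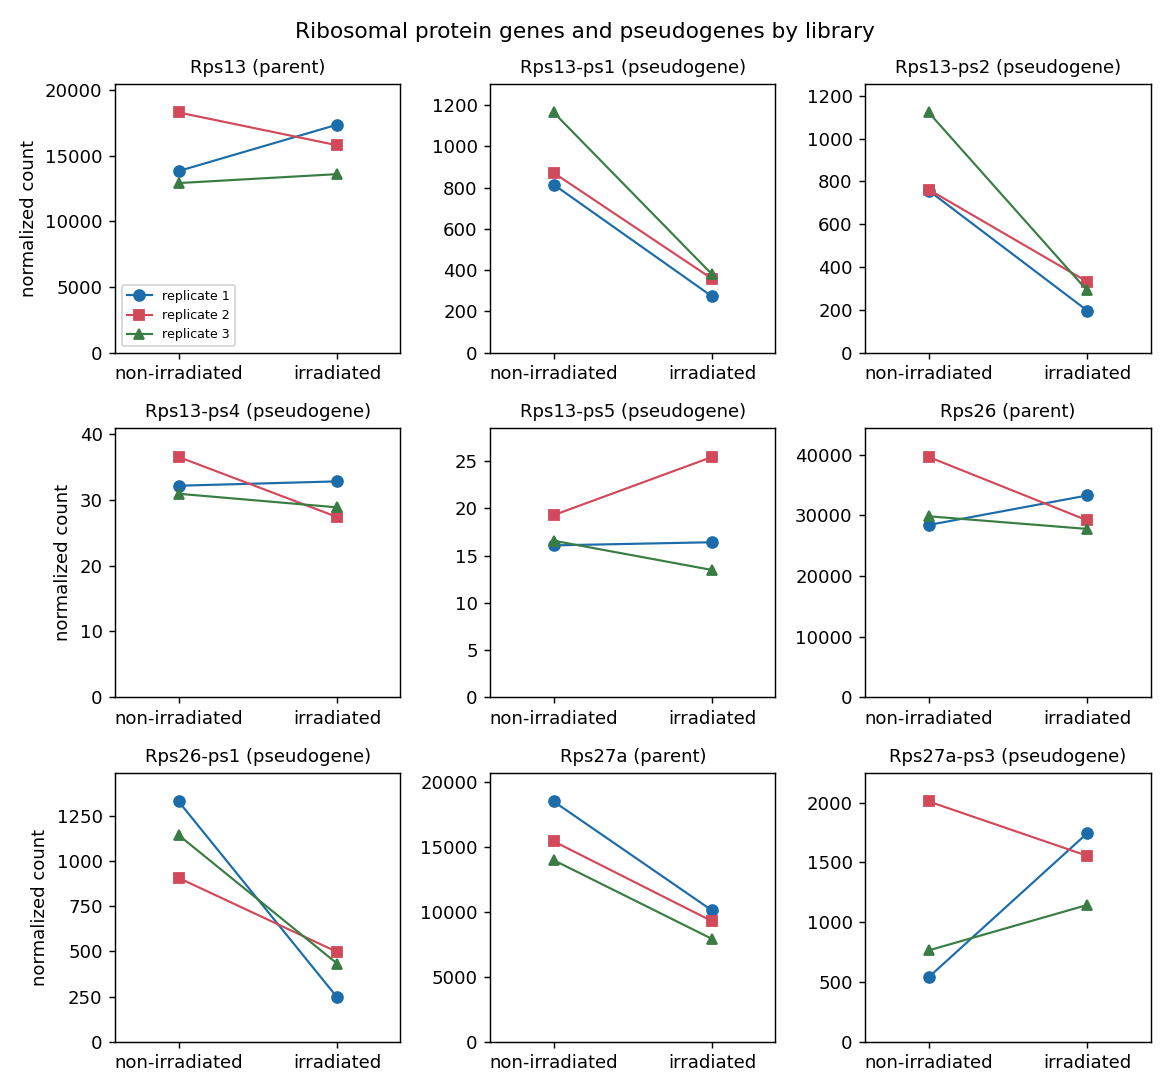
Normalized counts (y axis, from 0, with its own scale in each panel) of Rps13, Rps26, Rps27a and their pseudogenes in the 3 non-irradiated and 3 irradiated libraries; lines join libraries of the same replicate number. Rps13-ps1, Rps13-ps2, Rps26-ps1 and Rps27a lie lower in every irradiated library, while the groups of Rps13, Rps26 and Rps27a-ps3 overlap.

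Rps27a encodes ubiquitin fused to a small-subunit protein, and it was the parent that fell. It had 18512, 15445 and 13988 normalized counts in non-irradiated and 10109, 9284 and 7915 in irradiated libraries. The groups did not overlap, and the log2 fold change was -0.81 ± 0.08 (SE, 3 pairs) with an adjusted p of 0.0227 in limma. Without the block the adjusted p was 0.9998 in limma, 0.99996 in edgeR and 0.00773 in DESeq2. Its pseudogene Rps27a-ps3, on chromosome 6, differed from it at 1 of 471 bases and had 539, 2009 and 763 in non-irradiated and 1742, 1555 and 1143 in irradiated libraries. Those groups overlapped, with log2 ratios by pair of 1.69, -0.37 and 0.58, whose SEM was 0.60. The log2 fold change was 0.63 ± 0.30 (SE, 3 pairs) with an adjusted p of 0.995 in limma. Parent and Rps27a-ps3 added together gave log2 ratios of -0.68, -0.69 and -0.70, a mean of -0.69 ± 0.0058 (SEM, 3 pairs), where the parent alone gave -0.87, -0.73 and -0.82. This sum leaves out Rps27a-ps2, which had 1807 to 7437 normalized counts, and with that copy added the mean was -0.40 ± 0.12 (SEM, 3 pairs).

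The other pseudogenes with a small p included 3 copies of Rpl30 and 1 each of Rpl17, Rpl3 and Rps15. Rpl30-ps8 had 583, 877 and 591 normalized counts in non-irradiated and 327, 615 and 443 in irradiated libraries, which overlap. Its log2 fold change was -0.59 ± 0.14 (SE, 3 pairs), with an adjusted p of 0.995 in limma. Rpl30-ps9 had a log2 fold change of -0.47 ± 0.22 and Rpl30-ps10 one of -0.36 ± 0.18 (SE, 3 pairs). All 3 were lowest in irradiated replicate 1, at 327, 124 and 685 normalized counts. Rpl30, which encodes a large-subunit protein, was at its highest in that library, at 14576 normalized counts compared with 10486 to 13179.6 in the other 5. Rpl17-ps5 (-0.36 ± 0.13), Rpl3-ps1 (-0.27 ± 0.11) and Rps15-ps3 (-0.64 ± 0.28; SE, 3 pairs) were below 0 as well. None of these 6 passed the adjusted threshold, each with an adjusted p of 0.995 in limma. The 96 tested pseudogenes not named by the selection rule had log2 fold changes of -1.03 (Rps25-ps1, 82.1, 123 and 170 in non-irradiated and 74.4, 122 and 21.2 in irradiated libraries) to 0.66, with 69 below 0, 27 above 0 and a smallest adjusted p of 0.995 in limma.

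Over all 119 tested pseudogenes the median log2 fold change was -0.14, with 87 below 0 and 32 above, beside a median of 0.005 over all genes tested. The 53 parents had a median of -0.10 with 50 below 0, and 165 tested pseudogenes of other named genes had a median of -0.008. By pair, the medians of the ribosomal protein pseudogenes were 0.13, -0.41 and -0.10, and those of the parents 0.14, -0.35 and -0.09, so that both sets were above 0 in pair 1 and lowest in pair 2, which holds non-irradiated replicate 2. Without replicate 2 the pseudogenes' median was 0.03. Lower in all 3 pairs were 18 of the 119, where 11% of all tested genes were, and higher in all 3 pairs were 7, where 11.8% were. Groups that did not overlap were found for 7 pseudogenes lower in irradiated cells (2.65% of all tested genes) and 2 higher (2.08%). Beside Rps13-ps1, Rps13-ps2 and Rps26-ps1, the lower ones included Rpl7-ps8, Rpl7a-ps7 and Rps23-ps2, and the higher ones were Rpl28-ps3 and Rpl36-ps12. A log2 fold change past 1 in either direction was found for 4 pseudogenes, compared with 3.98% of all tested genes.

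**Figure D3:**
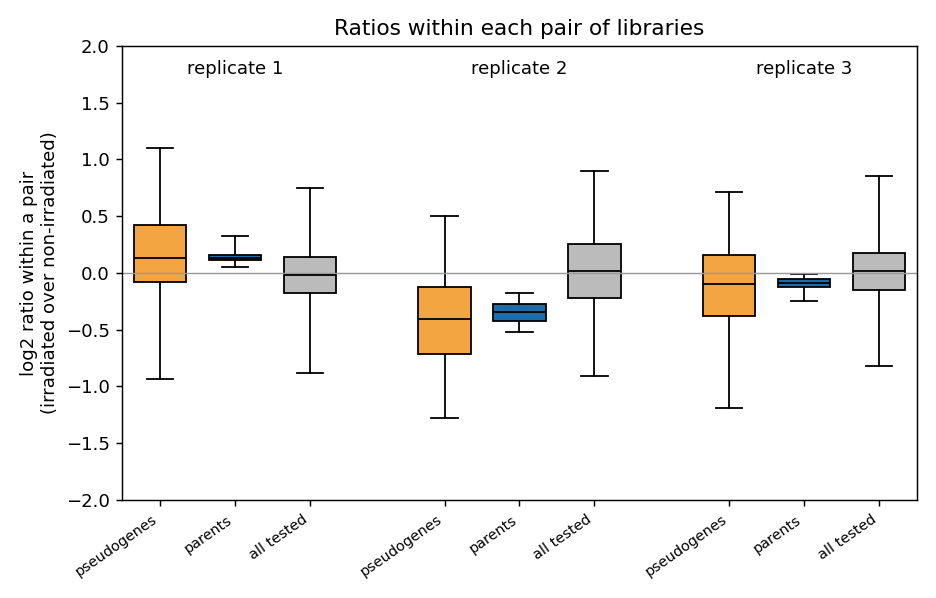
Log2 ratios of irradiated over non-irradiated libraries within each pair (y axis) for the 119 tested pseudogenes, the 53 parents and all 16141 tested genes; boxes show quartiles with the median as a line, and whiskers the 5th and 95th percentiles. The medians of pseudogenes and parents lie above 0 in pair 1 (0.13 and 0.14) and at their lowest in pair 2 (-0.41 and -0.35), while those of all genes stay near 0.

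Whether a pseudogene changed differently from its parent was tested on the difference of their log2 levels, over the 251 pairs of named pseudogene and parent in the table, 119 of them with a pseudogene chosen by the rule. No pair was called in either direction in limma (0% of 251), and 10 had an unadjusted p under 0.05, among them 4 of the 119 lower than their parent and 3 higher, as well as Rps27a-ps2, which the rule leaves out, at 1.47 ± 0.45 (SE, 3 pairs). The smallest p-values were those of Rps13-ps1, at -1.55 ± 0.20 relative to Rps13 (adjusted p = 0.166 in limma), and Rps13-ps2, at -1.76 ± 0.28 (adjusted p = 0.210 in limma). Rps27a-ps3 stood at 1.44 ± 0.42 relative to Rps27a and Rps26-ps1 at -1.46 ± 0.43 relative to Rps26 (SE, 3 pairs; adjusted p = 0.946 for both in limma). The calls depended on the replicates: 2 of the 119 were called lower than the parent without replicate 2 and 4 without replicate 3. Fits without a replicate leave fewer residual degrees of freedom. How many of all 251 pairs those fits called is not given here, so these counts cannot be read as particular to the 119. The median difference over the 119 was -0.05, and 70 lay within 0.2 of 0.

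**Figure D4:**
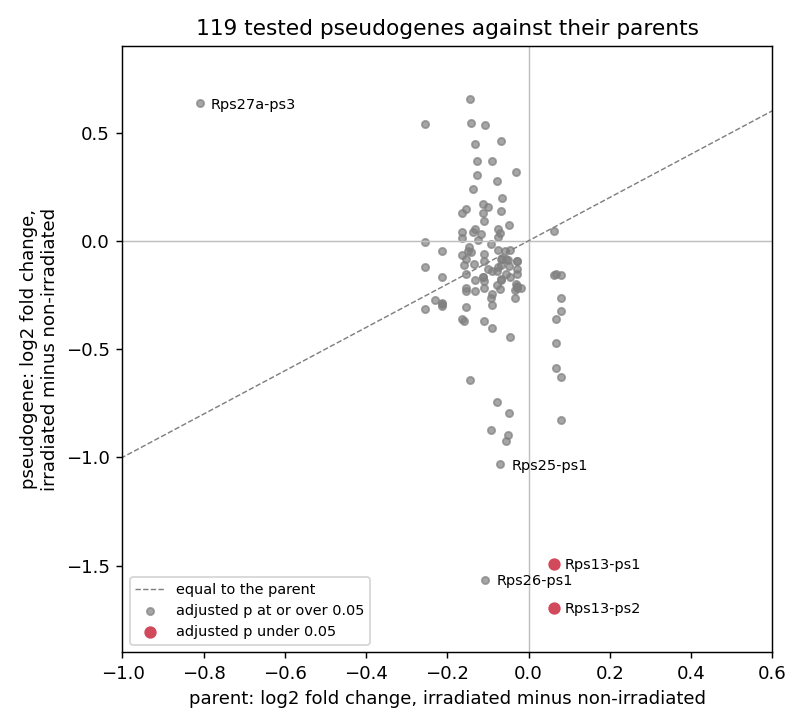
Log2 fold change (irradiated minus non-irradiated, on the log2(normalized count + 1) scale) of each of the 119 tested pseudogenes on the y axis against that of its parent on the x axis; red points have an adjusted p under 0.05, and the dashed line marks equal values. Rps13-ps1 and Rps13-ps2 lie far below the line at a parent value of 0.06, Rps27a-ps3 lies far above it at a parent value of -0.81, and the other parents lie between -0.26 and 0.08.

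Since reads of near-identical copies can be divided between them, the reads of each parent and its pseudogenes were also summed. In the Rps13 family the pseudogenes held 10.5%, 8.45% and 15.3% of the sum in non-irradiated replicates 1, 2 and 3 and 2.90%, 4.49% and 4.97% in irradiated replicates 1, 2 and 3. The family's sum had a mean log2 ratio of -0.05 ± 0.14 (SEM, 3 pairs). In the Rps26 family the pseudogene held 4.47%, 2.24% and 3.69% of the sum in non-irradiated and 0.734%, 1.67% and 1.54% in irradiated libraries, and the sum had a mean log2 ratio of -0.14 ± 0.18 (SEM, 3 pairs). In both families the share of the copies was lower in every irradiated library. Rps27a showed the reverse order of shares, with Rps27a-ps3 at 2.83%, 11.5% and 5.17% in non-irradiated and 14.7%, 14.3% and 12.6% in irradiated libraries.

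In the Rpl17 and Rpl7a families the division varied between libraries of the same group. Rpl17 had 5589, 6615 and 9683 normalized counts in non-irradiated and 10790.3, 4047 and 5840.3 in irradiated libraries, and Rpl17-ps10 had 9616, 10334 and 4372 in non-irradiated and 6004, 9466 and 8319 in irradiated libraries. The parent was highest in non-irradiated replicate 3 and irradiated replicate 1, the same 2 libraries in which this copy was lowest. Its other copies are not given by library, and how reads were placed between parent and copies was not tested. The highest and lowest values of Rpl17 differed 2.67-fold, and those of the sum with its 6 pseudogenes, 24749.6 to 31156, differed 1.26-fold. Rpl7a, a large-subunit gene, had 13931, 19030.4 and 14877 in non-irradiated and 19000.6, 27425 and 8933 in irradiated libraries. It was highest in irradiated replicate 2, where Rpl7a-ps11 had its lowest value of 5776, and lowest in irradiated replicate 3, where Rpl7a-ps11 had 10603. The pseudogenes' share of the Rpl7a family was 19.6% in irradiated replicate 2 and 58.0% in irradiated replicate 3. The highest and lowest values differed 3.07-fold for Rpl7a and 1.61-fold for the family's sum. Of all 53 families, 3 had a parent whose values differed more than 2-fold, Rpl17, Rpl7a and Rps27a, and 1, Rps27a, a sum that did; with Rps27a-ps2, which the rule leaves out, that sum differed 1.81-fold. The Rpl30 copies held 17.1% to 17.9% of their family in non-irradiated libraries, 8.19% in irradiated replicate 1 and 16.5% in the other irradiated libraries.

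**Figure D5:**
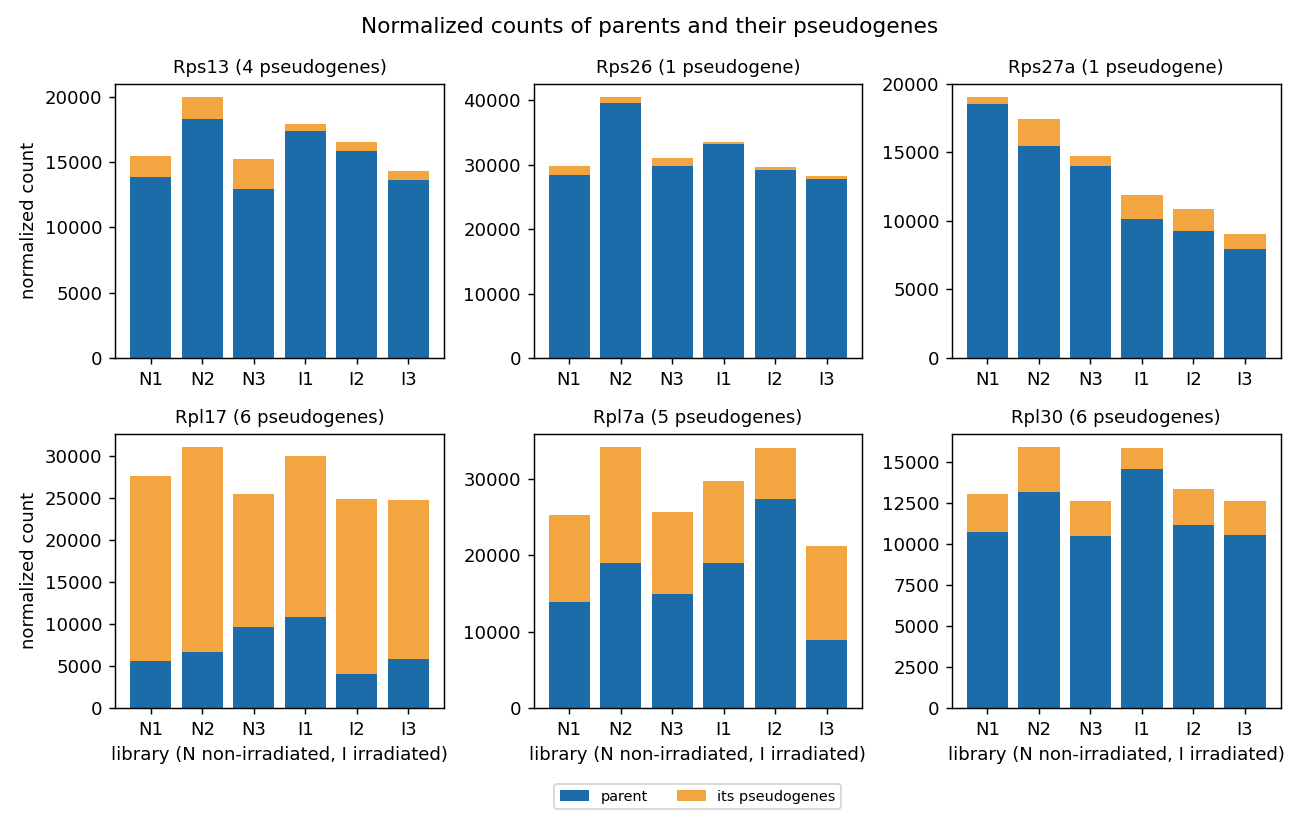
Stacked bars of normalized counts (y axis, from 0) of 6 parents and, on top, the sum of their pseudogenes in each library; N1 to N3 are the non-irradiated and I1 to I3 the irradiated replicates 1 to 3. The pseudogenes' share of Rps13 is 8.45% to 15.3% in non-irradiated and 2.90% to 4.97% in irradiated libraries, and in Rpl17 and Rpl7a the division between parent and pseudogenes varies more than the total.

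Differences between replicate numbers were tested in the same fit. Rpl30-ps8 was the only 1 of the 119 pseudogenes called (adjusted p = 0.0448 in limma's F test), where 13.4% of all tested genes were. Among the next by p were Rpl19-ps1, Rpl31-ps11 and Rps13-ps1, with adjusted p-values of 0.151 to 0.167 in limma. Rpl19-ps1 had 50.8, 144 and 45.3 normalized counts in non-irradiated and 79.8, 92.0 and 51.0 in irradiated libraries. In this copy replicate 2 was the highest and replicate 3 the lowest in both groups. Rpl31-ps11 had 22.0, 18.3 and 3.31 in non-irradiated and 15.3, 11.7 and 0.962 in irradiated libraries, lowest in replicate 3 in both groups.

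The genes around these pseudogenes are given by lists. Of 47 large-subunit genes 45 were below 0, with a median log2 fold change of -0.10, and 0 were called. Their smallest p-values were those of Rpl21 (-0.26 ± 0.08) and Rpl39 (-0.21 ± 0.11; SE, 3 pairs). Of 32 small-subunit genes 31 were below 0, with a median of -0.10, and 1 was called lower, Rps27a, with Rps29 at -0.35 ± 0.15 (SE, 3 pairs). By pair the medians were 0.14, -0.35 and -0.10 for the large and 0.14, -0.37 and -0.07 for the small subunit, above 0 in pair 1 and lowest in pair 2 with non-irradiated replicate 2. Of all 16141 tested genes 7830 were below 0. Ribosomal protein paralogs with introns (6 genes) had a median of -0.07 and 0 calls, with Rps4l at -0.13 and Rpl7l1 at 0.08. Other mRNAs with a 5′ terminal oligopyrimidine tract, the element through which growth signals set the translation of ribosomal protein mRNAs, had a median of -0.07 over 15 genes and 0 calls, with Eif3f at -0.13 and Eif3e at -0.10. Ribosome biogenesis genes had a median of 0.02 over 20 genes and 0 calls, with Wdr12 at -0.10 and Ddx21 at 0.08. Of those 20, 11 differed between replicate numbers at an adjusted p under 0.05 in limma's F test, where 13.4% of all tested genes did. Genes of nonsense-mediated decay and RNA surveillance had a median of 0.07 over 11 genes and 0 calls, with Xrn1, a 5′ to 3′ exonuclease, at 0.20.

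Several pseudogenes of 1 parent were copies of each other. Rps12-ps11 to Rps12-ps18, all on the X chromosome, differed from each other at 0 to 3 of 399 bases and from Rps12 at 8 to 10. The mean levels of these 8 copies lay between 5.77 and 9.67 normalized counts, and none was tested. Rps12-ps3 on chromosome 19, identical to Rps12, stood at 8514. Rpl35a-ps2, Rpl35a-ps3, Rpl35a-ps4 and Rpl35a-ps6 had the same sequence over 333 bases and means of 130, 100.1, 115 and 90.4 normalized counts, while Rpl35a-ps5, with 2 differences from them, had 6.33. For copies that share every base, the value of a single copy depends on how the counting divided their common reads.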

How the data were processed

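The values are the authors' normalized counts, a signal obtained by dividing each gene's count by a size factor of its library, per the file headers. The deposited table also holds DESeq2 output, per the file headers, namely log2 fold changes, their SE, a statistic (score), p-values and adjusted p-values. The submitters' processing notes list Trimmomatic 0.39, FastQC 0.11.9, HISAT2 2.2.1, StringTie 2.1.7 and build GRCm39. Strand, read length and the handling of reads with several matches: not given in the sources used here. Of 20745 rows 80 repeated a gene and were dropped. When each library was divided by its step, 100% of its values were whole to within 0.001 reads.

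A gene entered the test if 3 or more libraries reached 10 normalized counts (16141 genes). The test was limma 3.58.1, run in R 4.3.3 on log2(normalized count + 1), with trended eBayes, the replicate number as a block, 2-sided p-values, Benjamini-Hochberg adjustment over all genes, a threshold of 0.05 and 2 residual degrees of freedom. Changes of low genes are understated on this scale. The block was used because the deposited DESeq2 results were fitted with it and because same-numbered libraries deviated together over 13054 genes (correlations 0.64, 0.47 and 0.57; different numbers at most 0.013). Over 81 of the pseudogenes alone these correlations were -0.17, -0.28 and -0.34, and those between different numbers reached 0.29. Among these pseudogenes same-numbered libraries therefore did not deviate together. edgeR 4.0.16, DESeq2 1.42.0 and voom on the recovered reads were alternatives. Only the limma fit of gene levels with the block was run on simulated counts. Local alignments and window matches used GENCODE M21 transcripts and Biopython; levels per kilobase used the parent's shortest transcript with the full coding sequence. The genes named were those called here or in the deposited table, the 10 of smallest p, the 10 of highest level, the 5 of smallest p for replicate number, their parents and up to 2 per list; a few of these are not reported here. Pseudogenes and lists were chosen with earlier results of these data known.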

Additional observations from a re-analysis of the deposited data

How the results depend on the processing

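The count of pseudogenes called lower in irradiated cells was 2 in the fit reported and under both other pseudocounts, a filter of 50 normalized counts, TMM, equal library totals, a robust fit and voom. It was 0 with no filter on low values, without a trend, and with no replicate block in limma or edgeR. Each of these fits called 0 genes in all, so their 0 is not particular to the pseudogenes. In edgeR with the block it was 1 (2 genes called in all). It was 3 in DESeq2 with the block and in the deposited table (24 genes called in all in each). DESeq2 without the block also gave 3 (5 genes called in all). The fits of edgeR and DESeq2 without the block were added after the data were seen. Leaving out 1 replicate gave 3 to 4 pseudogenes called lower and 0 to 1 called higher, the latter Rps27a-ps3 without replicate 2, and 35, 46 and 56 genes called in all without replicates 1, 2 and 3. Of the pseudogenes tested against their parent, 0 to 4 were called lower in these fits. For replicate number the count of pseudogenes called, 1 in the fit reported, was 0 with no filter and without a trend and 2 to 5 with a replicate left out. How many of all pairs, or of all genes for replicate number, were called in these other fits is not given here. The pseudogenes' median log2 fold change lay between -0.28 and 0.03 with a replicate left out and between -0.16 and -0.13 otherwise. With no filter more genes are tested; the cause of the other changes was not tested. Depth limits the 54 untested pseudogenes, whose means did not exceed 10.2 normalized counts.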

Other observations

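The sequences of 2 pseudogenes did not match the parent in their name. Rpl18-ps1 and Rps7-ps2 aligned to Rpl18 and Rps7 over 2.82% and 2.56% of the coding sequence. Of the windows of 50 bases of Rps7-ps2, 18.2% were found in Odc1, which encodes ornithine decarboxylase. Rpl18-ps1 had a mean of 18.2 normalized counts, with a log2 fold change of -0.13 ± 0.57 (SE, 3 pairs), and Rps7-ps2 a mean of 1.79. Rpl13-ps1 aligned to Rpl13 only on the opposite strand, with an identity of 92.4%, and had a mean of 7.12.

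Annotation as transcribed did not go with a high level in every case. Of the 7 transcribed processed pseudogenes, Rps7-ps3 (6633), Rps2-ps10 (2009), Rpl10-ps1 (843), Rps26-ps1 (759.7) and Rps15-ps3 (134) were above 100 normalized counts, and Rpl29-ps2 (12.3) and Rps15a-ps4 (11.1) were near the filter. Rps13-ps1 and Rps13-ps2 did not carry that annotation. Copies in introns on the other strand had a median of 111 normalized counts (34 copies), those in introns on the same strand 87.9 (22 copies) and those outside other genes 21.7 (110 copies), with median identities of 98.7%, 98.8% and 98.1%. Whether reads of the surrounding gene entered these values was not tested.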
